A study of Homo sapiens with 6 samples.

Results

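The 40 genes described here comprise targets and regulators of the hypoxia-inducible factors (HIFs) and the genes of glycolysis, among 59653 gene symbols counted in 6 mRNA sequencing libraries. They were chosen by name, as HIF target and glycolysis genes, after earlier work on the same libraries had shown that they spread over the SOX2 siRNA libraries while the control libraries seemed flat. All 40 passed the filter on low counts, among 17592 genes tested. All libraries are from PA1, an established line of human ovarian teratocarcinoma cells, labelled wildtype. Cells growing on plastic received either a negative control small interfering RNA (siRNA) or siRNA against SOX2. After 24 h they were moved to poly-HEMA plates, which prevent attachment, and RNA was taken after 72 h more in suspension. Each group had 3 libraries, numbered 1 to 3. The labels name a pair of SOX2 siRNAs without saying whether they were pooled or which library received which. Nor do they say whether the libraries of a group came from separate cultures, so p-values measure the spread between these libraries, which may be technical.

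HIFs are transcription factors made of an oxygen-regulated alpha subunit and the stable subunit ARNT. In oxygen, prolyl hydroxylases of the EGLN family mark the alpha subunit for destruction through the VHL ubiquitin ligase. When oxygen is short the alpha protein persists, binds the core sequences ACGTG and GCGTG, and raises genes for glucose uptake, glycolysis, pH control, blood vessel growth and mitochondrial turnover. The alpha subunits are controlled mainly as proteins, which RNA sequencing does not measure.

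Total counts ranged from 25152313 to 32753184 per library, and 3 counts equalled 0.0909 to 0.120 CPM (counts relative to the scaled library total). SOX2 stood at 245 to 265 CPM in the control libraries and at 50.6 to 54.9 CPM in the SOX2 siRNA libraries. Of the 9 markers fixed for the line, TDGF1 had 0 to 3 counts per library and L1TD1 0.830 to 2.67 CPM. The sum of all 9 was 2948 to 2996 CPM in control and 2695 to 2754 CPM in SOX2 siRNA libraries. Within that sum SOX2 and PODXL fell (PODXL from a mean of 1316 to 671 CPM), and LIN28A (706 to 1148 CPM), LIN28B (239 to 359 CPM) and POU5F1 (301 to 339 CPM) rose. Of 10 leucocyte, endothelial and stromal markers, 2 to 4 were at 0 in each library, HBB in all 6. Their sum was 76.4 to 79.3 CPM in control and 52.3 to 54.0 CPM in SOX2 siRNA libraries, most of it PECAM1 (62.8 to 65.7 and 43.1 to 44.2 CPM).

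The 40 genes had a median log2 fold change near 0 between SOX2 siRNA and control, and differed widely between the 3 SOX2 siRNA libraries. For 37 of them SOX2 siRNA replicate 1 was highest, replicate 2 intermediate and replicate 3 lowest, an order that 21.3% of all tested genes shared. The exceptions were HIF1A and EPAS1, which had the opposite order (23.6% of all tested genes), and CA12. The range of log2 CPM was wider in SOX2 siRNA than in control libraries for 39 of the 40, PKM being the exception, against 49.1% of all tested genes. These values chose the genes and are given as a description. The median difference between replicates 1 and 3 was 0.57 on the log2 scale, against -0.0060 over all tested genes. It was 0.99 for the 20 HIF subunits, hydroxylases and targets, called the HIF side below, and 0.42 for the 20 genes of glucose transport and glycolysis.

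**Figure D1:**
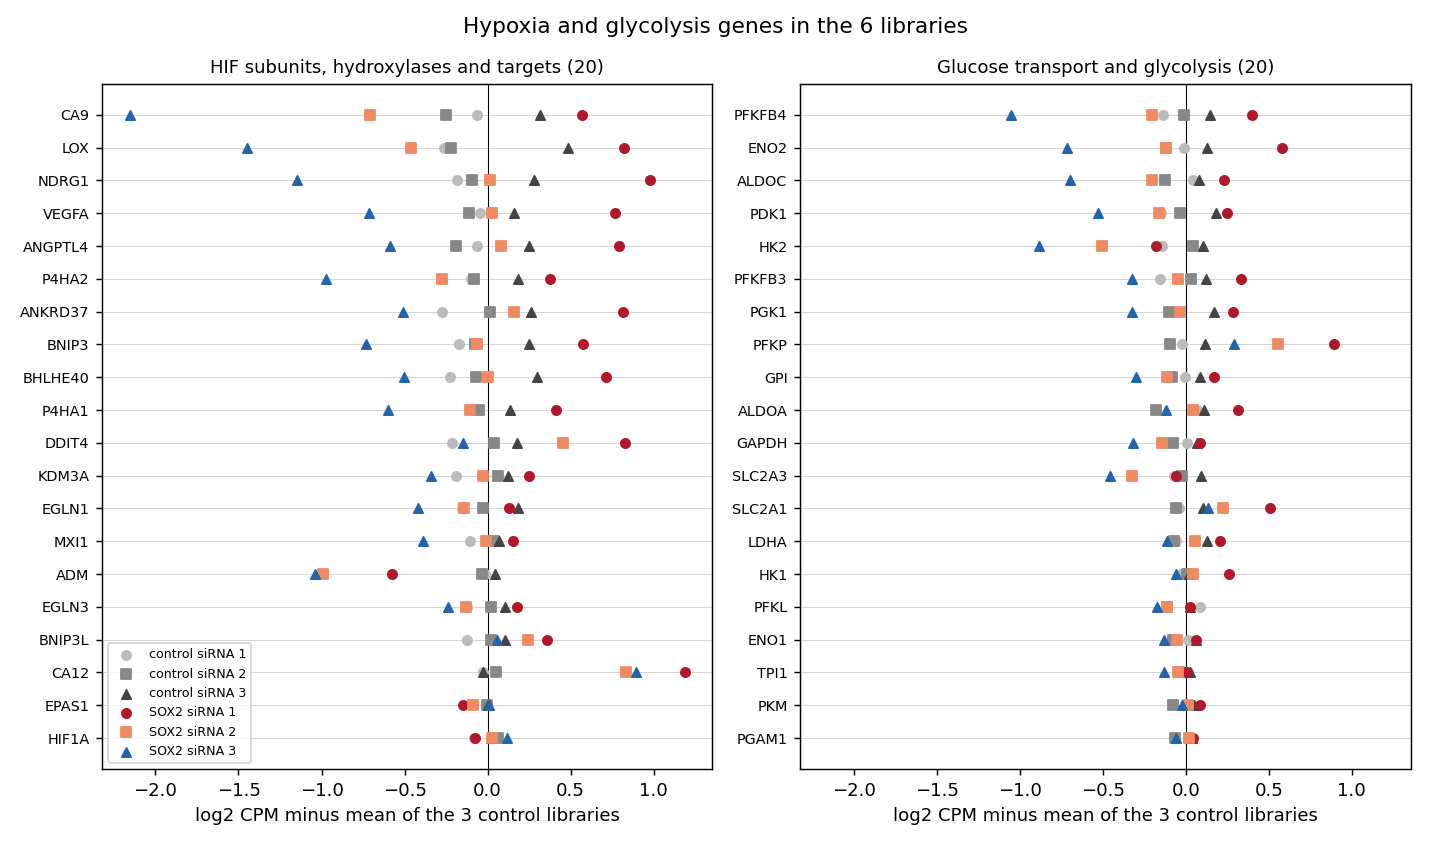
Log2 CPM of each of the 40 genes in each library, as the difference from the mean of the 3 control libraries, with genes sorted by the difference between SOX2 siRNA replicates 1 and 3. For 37 genes SOX2 siRNA replicate 1 (red circles) lies to the right of replicate 2 (orange squares), and replicate 2 to the right of replicate 3 (blue triangles). Control replicate 3 (dark triangles) is the highest control for 37 genes.

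The control libraries were not flat either. Control replicate 3 was the highest of the 3 controls for 37 of the 40 genes, against 31.2% of all tested genes. As medians over the 40 genes, relative to the control mean, the control libraries stood at -0.068, -0.062 and 0.11 and the SOX2 siRNA libraries at 0.27, -0.047 and -0.33 (log2, replicates 1 to 3). On the HIF side the corresponding medians were -0.12, -0.030 and 0.17 in control and 0.49, -0.019 and -0.51 in SOX2 siRNA libraries. On the glycolysis side they were -0.014, -0.071 and 0.098 in control and 0.22, -0.051 and -0.24 in SOX2 siRNA libraries. SOX2 siRNA replicate 2 therefore sat near the controls on both sides, with replicates 1 and 3 on either side of them. Over all tested genes the 6 medians lay between -0.000031 and 0.0069.

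Set against the 3 control libraries gene by gene, SOX2 siRNA replicate 1 was above the highest control for 32 of the 40 genes, where 34.9% of all tested genes were, and below the lowest for 3 (34%). Replicate 3 was below the lowest control for 30 of the 40, where 35.2% of all tested genes were, and above the highest for 5 (36%). Replicate 2 was above the controls for 6 genes (34.7% of all tested genes), below them for 16 (33.5%) and among them for 18. Leaving out a control library can only keep or raise the counts above and below the controls, so it is no test of them. Without control replicate 3 there were 33 genes above for replicate 1 and 30 below for replicate 3.

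Several properties of the SOX2 siRNA libraries can be set beside this spread. Over all tested genes replicate 1 stood apart, at -29.8 on the first principal component of these 3 libraries (53.0% of the variance), with replicates 2 and 3 at 10.4 and 19.4. Replicates 1 and 3 also differed most of the replicate pairs in counts (chi-square per degree of freedom 6.42, against 2.91 to 4.39 for the others). SOX2 itself was at 51.8, 54.9 and 50.6 CPM in replicates 1 to 3, so the library with the highest and the one with the lowest hypoxia genes had nearly the same SOX2 level. Total counts were 29965107, 32487683 and 30160522, and mitochondrial genes took 6.47%, 6.58% and 6.60% of counts. Genes with at least 1 count numbered 26806, 26743 and 26499. With tested genes binned by quartile, the median difference between replicates 1 and 3 was -0.014 for the shortest transcripts and 0.0055 for the longest. For the lowest and highest GC content it was -0.042 and 0.018. The part of these properties in the result was not tested.

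The HIF alpha subunits themselves varied little. HIF1A was at 351, 386 and 376 CPM in control replicates 1 to 3 and at 352, 377 and 401 CPM in SOX2 siRNA replicates 1 to 3. Its lowest SOX2 siRNA library was replicate 1, in which the target genes were highest. EPAS1, which encodes HIF-2 alpha, was at 70.2, 70.2 and 70.5 CPM in control and at 63.4, 66.2 and 70.8 CPM in SOX2 siRNA libraries. Neither passed the group test (log2 fold changes 0.02, SE 0.049, and -0.07, SE 0.045; edgeR adjusted p = 0.780 and 0.256), and their SOX2 siRNA ranges, 0.19 and 0.16, were the smallest on the HIF side.

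The prolyl hydroxylase genes EGLN1 and EGLN3 are themselves HIF targets and form a feedback loop on the alpha subunits. EGLN1 was at 77.3, 84.6 and 98.0 CPM in control and at 94.5, 78.3 and 64.5 CPM in SOX2 siRNA libraries. EGLN3 was at 25.3, 27.9 and 29.7 CPM in control and at 31.2, 25.2 and 23.3 CPM in SOX2 siRNA libraries. Both thus followed the order of the targets, with groups that overlapped.

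Among the target genes the widest range was that of CA9, encoding carbonic anhydrase IX, a membrane enzyme of pH control and a standard marker of hypoxic tumour cells. CA9 was at 5.48, 4.83 and 7.16 CPM in control replicates 1 to 3 and at 8.55, 3.49 and 1.24 CPM in SOX2 siRNA replicates 1 to 3. These rest on 258 counts in SOX2 siRNA replicate 1 and 37 in replicate 3, a ratio after scaling of 6.90 (95% interval 4.88 to 10.02, exact binomial, counting error only). The control libraries lay between SOX2 siRNA replicates 1 and 2.

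LOX, which encodes lysyl oxidase, the enzyme that cross-links collagen, was at 6.85, 7.06 and 11.6 CPM in control and at 14.6, 5.97 and 2.98 CPM in SOX2 siRNA libraries. It also had the widest range among the controls, 0.75 on the log2 scale. NDRG1, a stress-responsive gene and strong HIF target, was at 40.9, 43.6 and 56.4 CPM in control and at 91.8, 47.0 and 21.0 CPM in SOX2 siRNA libraries. In both genes replicate 1 was above all controls and replicate 3 below all of them. The ratio of replicate 1 to replicate 3 was 4.92 (3.91 to 6.24) for LOX and 4.37 (4.01 to 4.78) for NDRG1. These intervals hold counting error only, not the variation between libraries.

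VEGFA, the main growth factor for blood vessels, was at 25.7, 24.4 and 29.5 CPM in control and at 45.1, 26.9 and 16.1 CPM in SOX2 siRNA libraries. ANGPTL4, a secreted regulator of lipoprotein lipase, was at 4.36, 3.99 and 5.43 CPM in control and at 7.95, 4.82 and 3.01 CPM in SOX2 siRNA libraries. Replicate 2 fell inside the control range in both, with the other SOX2 siRNA libraries outside it in opposite directions. The collagen prolyl hydroxylase subunits P4HA1 and P4HA2 behaved alike in the order of libraries. P4HA2 was at 20.1, 20.4 and 24.5 CPM in control and at 28.0, 17.8 and 10.9 CPM in SOX2 siRNA libraries. P4HA1, more abundant in counts, ranged from 133 to 155 CPM in control and from 93.2 to 188 CPM in SOX2 siRNA libraries.

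BNIP3, a mitochondrial receptor for mitophagy, was at 81.2, 87.0 and 109 CPM in control and at 136, 87.6 and 55.1 CPM in SOX2 siRNA libraries. Its relative BNIP3L (NIX) had a much smaller range, at 161, 178 and 188 CPM in control and 225, 208 and 182 CPM in SOX2 siRNA libraries. Of the counts in BNIP3 and its 39 named pseudogenes, the pseudogenes held 3.32% to 4.23%. BHLHE40, a transcriptional repressor induced by hypoxia, was at 16.0, 17.8 and 23.1 CPM in control and 30.8, 18.8 and 13.2 CPM in SOX2 siRNA libraries. The remaining HIF targets had differences between SOX2 siRNA replicates 1 and 3 of 1.32 for ANKRD37, 0.97 for the mTOR inhibitor gene DDIT4, 0.59 for the histone demethylase gene KDM3A and 0.55 for MXI1, a MYC antagonist (log2 scale).

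Promoter sequences are shown for the 4 genes with the widest SOX2 siRNA range that had a usable entry in the RefSeq table (GRCh38.p14), because HIF binds DNA at defined core letters. Each window is the 250 bases before a listed transcription start, 5′ to 3′ on the gene's strand, with matches to ACGTG or GCGTG on either strand in capitals (CACGT is ACGTG on the other strand).
CA9 promoter, chr9:35673678-35673927, plus strand: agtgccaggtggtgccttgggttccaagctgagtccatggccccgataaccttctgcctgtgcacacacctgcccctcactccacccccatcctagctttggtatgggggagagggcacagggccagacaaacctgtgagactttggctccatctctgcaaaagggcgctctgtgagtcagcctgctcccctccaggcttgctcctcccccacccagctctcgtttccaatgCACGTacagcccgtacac
LOX promoter, chr5:122078260-122078509, minus strand: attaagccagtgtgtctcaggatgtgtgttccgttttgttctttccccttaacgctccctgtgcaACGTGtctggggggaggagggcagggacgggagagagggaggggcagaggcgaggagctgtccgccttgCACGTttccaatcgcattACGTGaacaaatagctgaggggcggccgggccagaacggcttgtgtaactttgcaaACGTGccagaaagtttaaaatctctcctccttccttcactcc
PFKFB4 promoter, chr3:48556804-48557053, minus strand: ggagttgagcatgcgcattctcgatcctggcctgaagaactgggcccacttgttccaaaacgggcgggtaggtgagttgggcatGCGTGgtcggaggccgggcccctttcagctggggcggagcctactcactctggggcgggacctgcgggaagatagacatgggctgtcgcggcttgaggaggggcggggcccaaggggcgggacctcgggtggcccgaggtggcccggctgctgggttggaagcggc
ANGPTL4 promoter, chr19:8363905-8364154, plus strand: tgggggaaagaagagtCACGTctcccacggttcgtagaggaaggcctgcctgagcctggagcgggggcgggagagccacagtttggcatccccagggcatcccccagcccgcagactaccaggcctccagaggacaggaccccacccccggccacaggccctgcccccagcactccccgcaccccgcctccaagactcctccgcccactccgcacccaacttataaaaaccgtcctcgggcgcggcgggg

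The CA9 match lies at -18 to -14 from the start. LOX holds 4 matches, the one nearest its start at -42 to -38. PFKFB4 has the only GCGTG of these 4 windows, at -166 to -162, and ANGPTL4 an ACGTG on the other strand at -234 to -230. Windows were found for 36 of the 40 genes, 1 per gene at the outermost listed start. ACGTG occurred on either strand in 17 of the 36 (47.2%) and in 18.6% of 27305 windows of the same length over all genes in the table. GCGTG occurred in 14 of the 36 (38.9%) and in 31.9% of all windows. The 36 belong to genes that passed the count filter, while the windows over all genes were not limited in this way. Base composition was not matched. ACGTG was in 9 of 17 windows on the HIF side and in 8 of 19 on the glycolysis side, including 5 matches for LDHA. The windows of EGLN3, P4HA2 and MXI1 on the HIF side and of SLC2A1, PFKP, PKM, PGAM1, TPI1, HK1 and PDK1 on the glycolysis side held neither. A match is a run of letters and not a measured binding site.

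**Figure D2:**
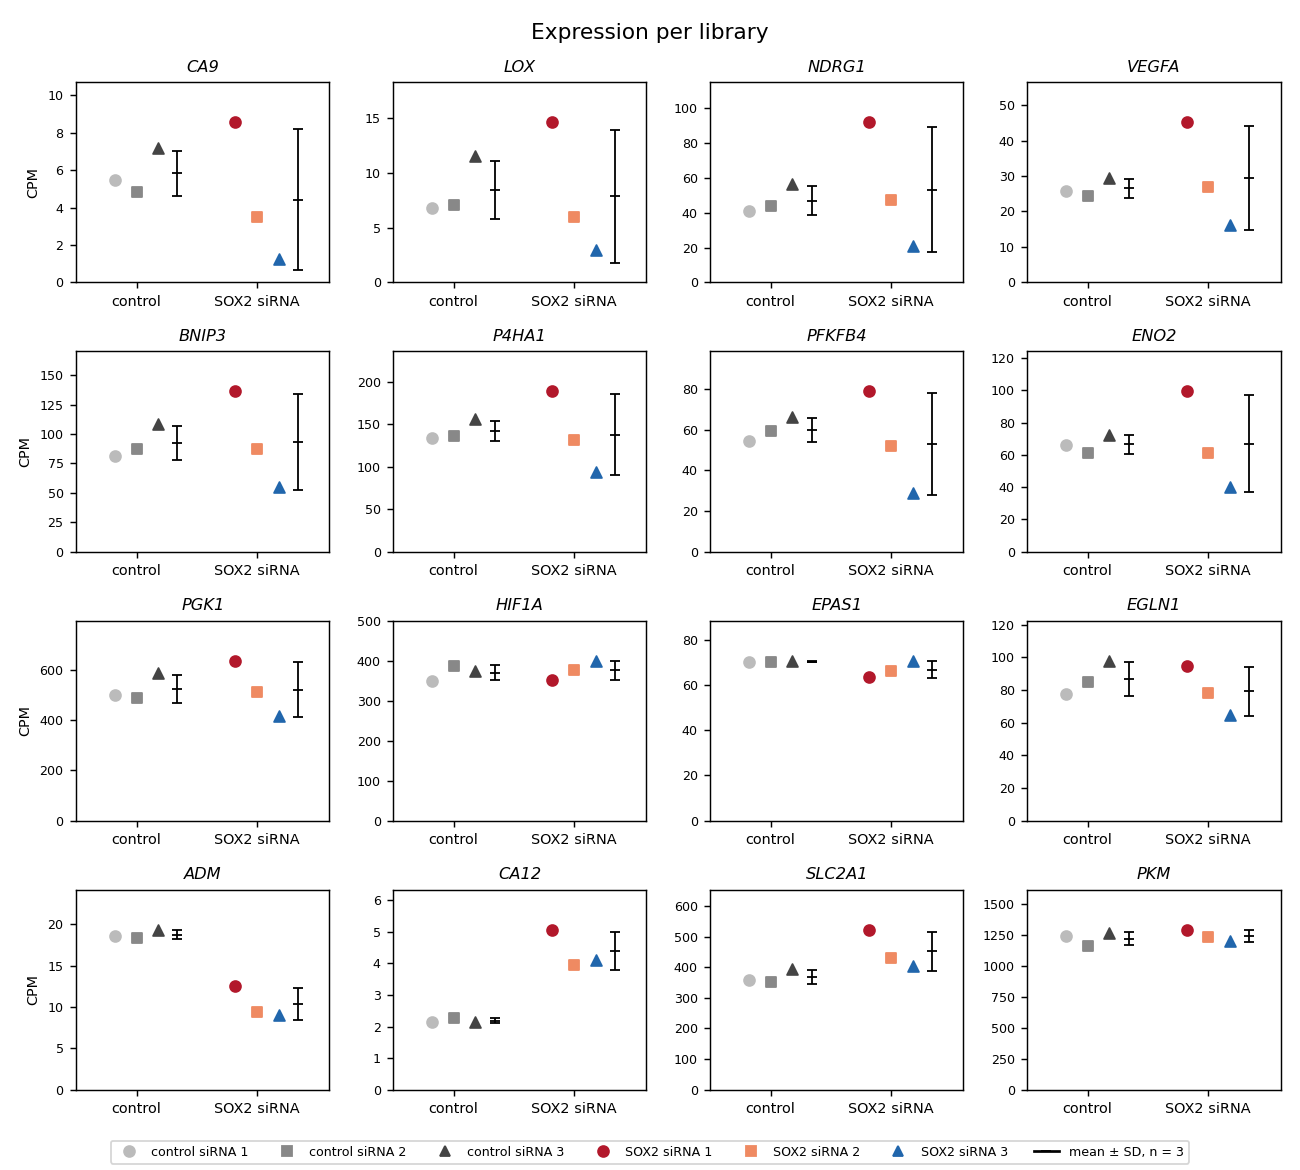
CPM in each of the 6 libraries for 16 of the genes, with the mean and SD of each group (n = 3) as bars at the side of the points and every axis starting at 0. CA9, LOX, NDRG1, VEGFA, BNIP3, P4HA1, PFKFB4, ENO2 and PGK1 have SOX2 siRNA replicate 1 above and replicate 3 below all controls. The groups of ADM, CA12 and SLC2A1 do not overlap.

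The group comparison asked which of these genes changed when SOX2 was reduced in cells without anchorage. By edgeR's quasi-likelihood test, adjusted over all tested genes, 1 of the 40 rose and 1 fell, where 14.8% of all tested genes rose and 13.4% fell. The median log2 fold change of the 40 was -0.016, with 19 above 0 and 21 below, and that of all tested genes was -0.00085. ADM, encoding the vasodilator peptide adrenomedullin, fell: it averaged 18.8 ± 0.548 CPM (SD, n = 3) with control siRNA, against 10.3 ± 1.92 CPM (SD, n = 3) with SOX2 siRNA, a log2 fold change of -0.86 (SE 0.104; edgeR adjusted p = 4.48e-05). Its libraries were at 18.6, 18.3 and 19.4 CPM in control and at 12.6, 9.40 and 9.07 CPM in SOX2 siRNA replicates 1 to 3, with no overlap. CA12, encoding a second membrane carbonic anhydrase, rose: it averaged 2.19 ± 0.0735 CPM (SD, n = 3) with control siRNA, against 4.38 ± 0.60 CPM (SD, n = 3) with SOX2 siRNA, a log2 fold change of 1.0 (SE 0.149; edgeR adjusted p = 6.48e-05). It was at 2.15, 2.28 and 2.14 CPM in control and at 5.07, 3.96 and 4.12 CPM in SOX2 siRNA libraries. The carbonic anhydrase genes therefore differed in pattern, CA12 separating the groups and CA9 spreading across both sides of the controls.

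Groups without overlap were found for 5 of the 40 genes, against 41.8% of all tested genes. With CA12, PFKP and SLC2A1 had every SOX2 siRNA library above every control (3 of 40, against 21.5%). With ADM, HK2 had every one below (2 of 40, against 20.3%). PFKP, SLC2A1 and HK2 did not pass the test. For CA9, LOX, NDRG1 and PFKFB4 the standard errors of the log2 fold change were 0.717, 0.671, 0.591 and 0.403, where that of ADM was 0.104. The number of genes called changed when SOX2 siRNA replicate 1 or 3 was left out. Without any other single library it stayed at 1 higher and 1 lower (10.9% to 13.5% and 9.91% to 11.9% of all tested genes). Without SOX2 siRNA replicate 1, 3 genes were higher and 4 lower (edgeR; 13.8% and 13.3% of all tested genes). The added calls were SLC2A1 at 0.17 and PFKP at 0.42, and SLC2A3 at -0.39, PFKL at -0.15 and GAPDH at -0.23 (log2 fold changes). Without SOX2 siRNA replicate 3, 3 genes were higher, with BNIP3L at 0.30 and PFKP at 0.73 added, and 1 lower (12.2% and 11.6% of all tested genes). The median over the 40 genes was -0.19 without replicate 1 and 0.12 without replicate 3. ADM and CA12 were called in each of these fits.

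**Figure D3:**
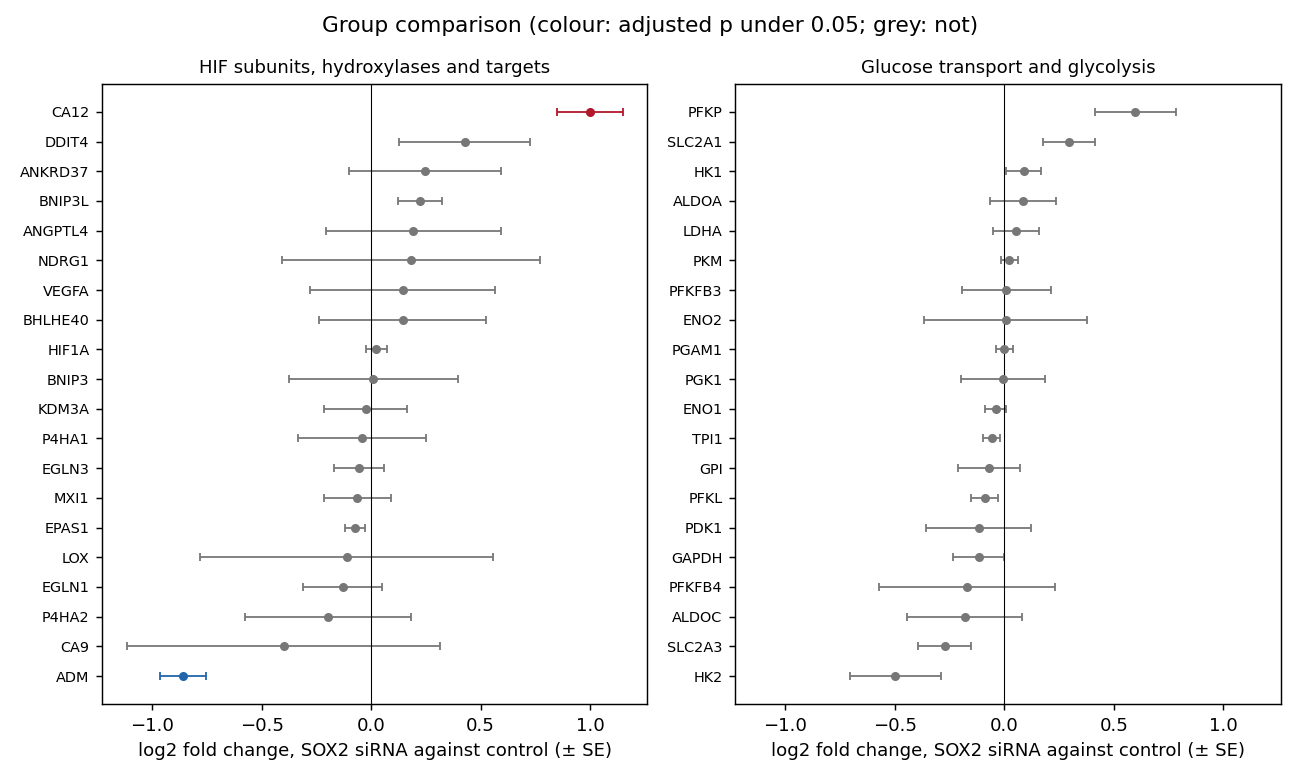
Log2 fold change of each gene between SOX2 siRNA and control libraries with its standard error, from edgeR's fit over all tested genes, for the HIF side (left) and the glycolysis side (right). CA12 at 1.0 (red) and ADM at -0.86 (blue) had adjusted p under 0.05, and the bars are longest for CA9, LOX and NDRG1.

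On the glycolysis side edgeR called 0 of 20 genes, and 1 had an unadjusted p under 0.05, against 37.7% of all tested genes. DESeq2's Wald test, which called 3857 of the 4964 genes that edgeR called, called PFKP higher. Both limma-voom (13.9% of all tested genes higher, 12.8% lower) and edgeR without robust estimation (14.2% and 12.8%) called PFKP and SLC2A1 higher and SLC2A3 and HK2 lower. The glucose transporter genes had log2 fold changes of opposite sign. SLC2A1 (GLUT1) was at 357, 353 and 395 CPM in control and at 523, 430.2 and 403 CPM in SOX2 siRNA libraries (log2 fold change 0.30, SE 0.119; edgeR adjusted p = 0.153). SLC2A3 (GLUT3) was at 627, 648 and 703 CPM in control and at 631, 525 and 480.3 CPM in SOX2 siRNA libraries (log2 fold change -0.27, SE 0.120; edgeR adjusted p = 0.187). All 3 SOX2 siRNA libraries were above the controls for SLC2A1, while for SLC2A3 replicate 1 lay among them.

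Enzymes that catalyse the same step differed in how far SOX2 siRNA replicates 1 and 3 stood apart. At the hexokinase step, which traps glucose in the cell, HK2 was at 151, 172 and 179 CPM in control and at 148, 118 and 90.3 CPM in SOX2 siRNA libraries, a difference between replicates 1 and 3 of 0.71 (log2). HK1, the housekeeping form, had a difference of 0.32. At the phosphofructokinase step, PFKP was at 60.5, 57.4 and 66.6 CPM in control and at 114, 90.2 and 75.1 CPM in SOX2 siRNA libraries (log2 fold change 0.60, SE 0.185; edgeR adjusted p = 0.0878). The difference between replicates 1 and 3 was 0.60 for PFKP, 0.20 for the liver-type gene PFKL and 0.083 for the muscle-type gene PFKM.

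At the aldolase step ALDOC was at 40.8, 36.3 and 41.9 CPM in control and at 46.4, 34.4 and 24.4 CPM in SOX2 siRNA libraries. The replicate difference was 0.93 for ALDOC and 0.43 for ALDOA. ENO2, the neuronal form of enolase, was at 66.0, 61.1 and 72.6 CPM in control and at 99.4, 61.0 and 40.4 CPM in SOX2 siRNA libraries, a difference of 1.30, where ENO1 had 0.19. LDHA, which turns pyruvate into lactate, had a difference of 0.32, and LDHB, which is not among the 40, one of -0.15. HK2, PFKP, ALDOC and ENO2 thus had the larger difference of the measured genes at their step. These are single libraries with no test.

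The enzymes with no second form among the 40 had differences of 0.10 (PGAM1) to 0.61 (PGK1). PGK1, the first ATP-producing enzyme of the pathway, was at 497, 486 and 587 CPM in control and at 636, 510.1 and 417 CPM in SOX2 siRNA libraries. GAPDH, often used as a reference gene, was at 3247, 3060.3 and 3391 CPM in control and at 3424, 2926 and 2592 CPM in SOX2 siRNA libraries, a ratio of replicate 1 to replicate 3 of 1.32 (1.31 to 1.33, counting error only). GPI had a difference of 0.47. The smallest ranges belonged to PGAM1, at 606 to 650 CPM in control and 608 to 653 CPM in SOX2 siRNA libraries, and to PKM, at 1157 to 1263 and 1198 to 1292 CPM. TPI1 was close to these, with a range of 0.13.

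The 3 genes that regulate glycolysis had a median difference of 0.78, and the 15 enzymes one of 0.40. PFKFB4, which makes and degrades the phosphofructokinase activator fructose 2,6-bisphosphate, was at 54.4, 59.3 and 66.3 CPM in control and at 78.9, 52.0 and 28.8 CPM in SOX2 siRNA libraries. PFKFB3, its relative with the stronger kinase activity, was at 43.4, 49.2 and 52.6 CPM in control and at 60.8, 46.6 and 38.6 CPM in SOX2 siRNA libraries. PDK1, the kinase that closes the entry of pyruvate into the mitochondrial cycle, was at 96.6, 104 and 121 CPM in control and at 127, 95.6 and 74.1 CPM in SOX2 siRNA libraries. All 3 had replicate 1 above and replicate 3 below the controls.

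Of the 40 genes, 12 were higher by at least 2-fold in SOX2 siRNA replicate 1 than in replicate 3, against 1.71% of all tested genes. None differed by that much in the other direction, against 0.802%. On the HIF side these were 10 of 20, and on the glycolysis side ENO2 and PFKFB4. The 11297 genes whose log2 CPM averaged 2 or more with a control range up to 0.3 took in 28 of the 40. Of these 28, 7 were in the 50 with the largest difference. The genes were chosen with this difference known, so these counts are a description only.

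**Figure D4:**
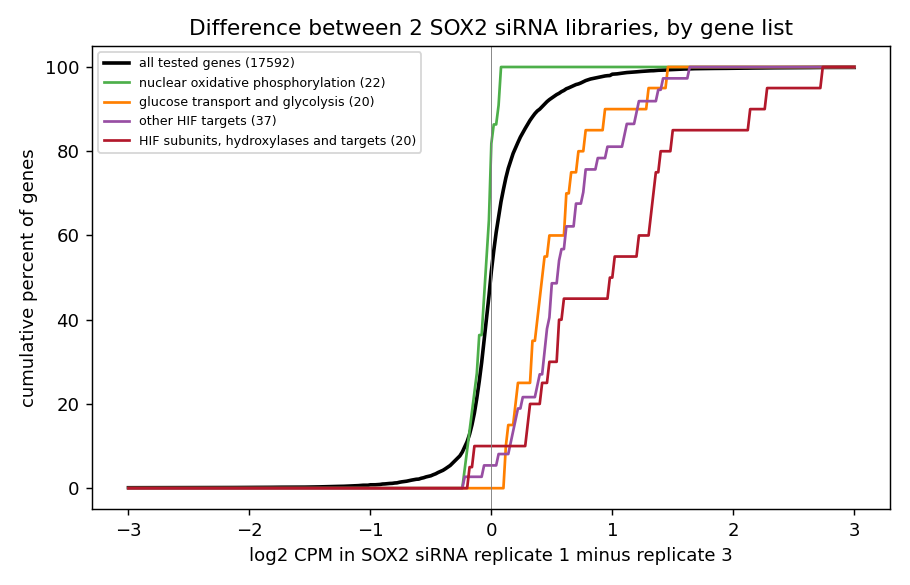
Cumulative share of genes by the difference in log2 CPM between SOX2 siRNA replicates 1 and 3. Curves are for all tested genes, the HIF side, the glycolysis side, 37 other HIF targets and 22 nuclear genes of oxidative phosphorylation. The gene lists were chosen with earlier results of these data known. The curves of the HIF side, of the glycolysis side and of the other HIF targets lie to the right of all tested genes, with medians of 0.99, 0.42 and 0.55 against -0.0060, and that of oxidative phosphorylation, at -0.050, does not.

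Further genes of the pathway were taken from fixed lists. These too were chosen with earlier results of these data known, so their order is given as a description. Of 40 other HIF targets, 37 were tested. SOX2 siRNA replicate 1 was highest, 2 intermediate and 3 lowest for 31 of these, against 21.3% of all tested genes. The median difference of the 37 between replicates 1 and 3 was 0.55. PPFIA4 was at 25.4, 27.3 and 28.9 CPM in control and at 36.4, 20.4 and 11.7 CPM in SOX2 siRNA libraries. MIR210HG, the host transcript of the hypoxia-induced microRNA miR-210, was at 4.39, 4.87 and 6.26 CPM in control and at 8.41, 5.94 and 3.15 CPM in SOX2 siRNA libraries. PPP1R3C, a glycogen-targeting subunit of protein phosphatase, and SPAG4 had differences of 1.37 and 1.20. In the group test EFNA1, VLDLR and CCNG2 rose (log2 fold changes 1.36, 0.50 and 0.40), 3 of the 37, and 9 had an unadjusted p under 0.05 (37.7% of all tested genes). EFNA1, a membrane-bound ligand of Eph receptors, was at 5.91, 5.79 and 5.40 CPM in control and at 17.1, 15.3 and 11.6 CPM in SOX2 siRNA libraries, so its groups were apart while replicate 1 was again highest. The 3 rises compare with 14.8% of all tested genes.

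Among 18 further regulators of HIF, 4 had replicate 1 highest and replicate 3 lowest and 8 the reverse order. These orders held for 21.3% and 23.6% of all tested genes. The median difference of the 18 between replicates 1 and 3 was -0.028. CITED2, which competes with HIF for its coactivators and is itself HIF-induced, rose: it averaged 86.4 ± 4.63 CPM (SD, n = 3) with control siRNA, against 125 ± 1.98 CPM (SD, n = 3) with SOX2 siRNA, a log2 fold change of 0.53 (SE 0.0423; edgeR adjusted p = 4.07e-08). Its libraries were at 89.8, 81.1 and 88.2 CPM in control and at 123, 124 and 127 CPM in SOX2 siRNA, so that the SOX2 siRNA libraries were nearly equal where the 40 genes differed. The ubiquitin ligase gene SIAH2, the hydroxylase gene EGLN2 and HIGD1A, a mitochondrial protein gene, also rose, with log2 fold changes of 0.27, 0.17 and 0.19. In all 6 of the 18 rose, RBX1 and HIF1AN being the others (14.8% of all tested genes rose), and 7 had an unadjusted p under 0.05 (37.7%). VHL was at 144 to 153 CPM in control and 154 to 159 CPM in SOX2 siRNA libraries.

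Of 30 other genes of glycolysis and pyruvate use, 24 were tested, and 3 rose and 6 fell (14.8% and 13.4% of all tested genes). The pyruvate dehydrogenase phosphatase gene PDP1 (0.48) and PFKM (0.24) rose, and DLAT (-0.24), a pyruvate dehydrogenase subunit, fell (log2 fold changes). In this list the median difference between replicates 1 and 3 was -0.081. The lactate exporter gene SLC16A3 (MCT4), a HIF target, stood apart at 28.5, 20.9 and 15.6 CPM in SOX2 siRNA libraries and 16.6 to 20.5 CPM in control. The nuclear genes of oxidative phosphorylation had a median difference of -0.050. Of these 22 genes 2 rose and 2 fell (14.8% and 13.4% of all tested genes).

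Stress responses that share genes with hypoxia were also measured. Of 16 genes of the integrated stress response, 3 rose and 3 fell (14.8% and 13.4% of all tested genes), among them SESN2 (0.49) and SLC7A11 (-0.37). For the list the median difference between replicates 1 and 3 was -0.042. VLDLR and STC2 are on this list and among the other HIF targets. Of 10 endoplasmic reticulum stress genes, 7 rose (14.8% of all tested genes) and 8 had an unadjusted p under 0.05 (37.7%). Those that rose included HERPUD1 (0.52), PDIA4 (0.43), SEL1L (0.29) and CALR (0.27). The median difference between replicates in this list was -0.072. Over these 6 pathway lists (other HIF targets, HIF regulators, other glycolysis genes, oxidative phosphorylation and both stress lists), 23 of 125 tested genes rose and 11 fell, against 14.8% and 13.4% of all tested genes. Without control replicate 2, 15 rose, and 11.3% of all tested genes did in that fit.

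Genes outside the 40 with the largest difference between SOX2 siRNA replicates 1 and 3, under the same limits on level and control range, were MIAT, CABP1, PPFIA4, C4orf47, PPL, BAIAP3, AHNAK2, SH3D21, HILPDA and WSB1. MIAT, a long non-coding RNA, was at 21.1, 20.8 and 24.8 CPM in control and at 13.9, 7.95 and 2.81 CPM in SOX2 siRNA libraries, below all controls in each. WSB1, a ubiquitin ligase subunit gene, was at 319, 338 and 392 CPM in control and at 563, 369.9 and 264 CPM in SOX2 siRNA libraries. PPFIA4, HILPDA and WSB1 stand on the list of other HIF targets. In the opposite direction the differences were smaller, from -0.48 to -0.92. They belonged to EMP1, SH3BGR, RNASEK-C17orf49, AC060766.7, PCDH8, TMEM183B, NT5E, SHISA3, AC106886.6 and RALGAPA1P1, none of them on a fixed list. RNASEK-C17orf49, TMEM183B and RALGAPA1P1 are a readthrough gene and gene copies, whose separate counts are uncertain.

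Some of the 40 genes carry limits of counting. In GENCODE 29, 21 share exon bases with an opposite-strand gene, CA9, LOX, VEGFA, BHLHE40 and GAPDH among them, and the use of strand is not given in the sources used here. Exons of 7, including PFKFB4, PFKP, PGK1 and SLC2A1, overlap a gene on the same strand. ADM, CA12, NDRG1, BNIP3 and ENO2 overlap neither. Among the genes with named pseudogenes, these held at most 2.28% of the family's counts for LDHA, 1.94% for TPI1 and 0.265% for GAPDH. In bulk RNA a change in every cell and a change in the share of cells that express a gene cannot be told apart.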

How the data were processed

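The deposited table gives unnormalized counts of reads for each gene symbol in the 6 PA1 libraries. The submitters' processing notes name STAR 2.7.3a, Salmon 0.14.1, DESeq2 1.28.1 and build GRCh38.p13 without roles; the counting program, annotation and use of strand are not given in the sources used here. Columns were matched by each library's description and groups by title. Genes were kept by filterByExpr (minimum count 10), libraries scaled by TMM, and groups compared with edgeR's quasi-likelihood test (robust=TRUE) with Benjamini-Hochberg adjustment over 17592 genes and a threshold of 0.05. Per-library values are CPM, or log2 CPM with a prior count of 2. R 4.3.3, edgeR 4.0.16, limma 3.58.1, DESeq2 1.42.0, Python 3.11.15 and matplotlib 3.10.9 were used, and the fit was tested on simulated data. The members and lists were chosen with earlier results of these data known.

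Values in every library were given, by rule, for called members, HIF1A, EPAS1, EGLN1, EGLN3, the 8 HIF-side and 6 glycolysis-side genes with the widest SOX2 siRNA range, and the 2 narrowest per side (average log2 CPM at least 2); P4HA1, BNIP3L, PGK1, GAPDH, the glucose transporters, PFKP, SLC16A3 and VHL were added after their values were seen. From each other list the rule named up to 4 called genes and those with the largest replicate difference, of which only some are printed, and outside the lists 10 genes per direction. Replicate pairs differed by more than counting noise (chi-square per degree of freedom 2.91 to 6.42). Lengths, GC content and overlaps came from GENCODE 29 (96.3% of tested genes matched), promoters from RefSeq. Alternatives were other scalings and filters, DESeq2, limma-voom, robust=FALSE, a replicate block, a prior count of 0.5 and each library left out.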

Additional observations from a re-analysis of the deposited data

How the results depend on the processing

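Other scalings (DESeq2 size factors, upper quartile, total counts) and a filter of 10 counts in every library kept 1 of the 40 genes called higher and 1 lower. Under these scalings 2311 to 2554 of 17592 genes were called higher and 2386 to 2734 lower. The number called higher was 2 with no filter beyond 1 count and 2 by DESeq2's Wald test. With no filter beyond 1 count, 2809 of 33956 genes were called higher and 2403 lower. DESeq2 called 3857 of the 4964 genes that edgeR called. By limma-voom and by edgeR without robust estimation 4 were called higher and 3 lower. Of all tested genes these called 13.9% and 14.2% higher, and each called 12.8% lower. Leaving out 1 library at a time gave 1 to 3 called higher and 1 to 4 called lower, with 3 and 4 without SOX2 siRNA replicate 1 and 3 and 1 without SOX2 siRNA replicate 3. Over the 6 pathway lists, 15 to 22 genes were called higher when 1 library was left out, where all libraries gave 23. Of all tested genes 10.9% to 13.8% were then called higher and 9.91% to 13.3% lower, where all libraries gave 14.8% and 13.4%. The cause of these shifts was not tested. ADM and CA12 kept their calls in all 15 settings. Of 600 single-gene values, 581 kept their side of the threshold and direction of call, 19 gained a call and 0 lost one, while 59 uncalled values changed sign.

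With the replicate number as a block, 1 gene was called higher and 1 lower, ADM at -0.864 and CA12 at 0.998, and over all genes 2720 were higher and 2457 lower, where the fit without the block gave 2599 and 2365. Same-numbered libraries had correlated deviations of 0.0868, -0.0377 and -0.0311, so the numbers were not taken as pairs. The order of the SOX2 siRNA libraries, known when the genes were chosen, held for 37 genes under every scaling and prior count tried. These settings use the same counts and are no test of the order. Genes with replicate 1 above the controls numbered 32 to 33 and those with replicate 3 below them 30 to 33. These include settings without each control library, which were chosen after seeing the data. Leaving out a control can only keep or raise these counts, so those settings are no test of them. CA9 rests on 37 counts in its lowest library, which limits its ratio. With 3 libraries a group, an exact permutation test cannot go below 0.1.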
